A study of Mus musculus with 12 samples.

Results

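The interleukins, the tumour necrosis factor (TNF) superfamily and their receptors were described in the renal cortex of ICGN and ICR mice. ICGN is an ICR-derived strain labelled as having nephrotic syndrome, and ICR is the stock set against it. Members were the probe sets whose annotated gene symbol began with Il, Tnfsf or Tnfrsf followed by a digit, or was Tnf, Osm, Osmr, Lif, Lifr or Csf1. The rule used no measured value and found 175 probe sets for 106 genes, of 18193 genes with a probe set of their own. Total RNA of the cortex was hybridised to 3 Affymetrix Mouse Genome 430 2.0 arrays in each of 4 groups, namely ICGN at 8 weeks, ICR at 8 weeks, ICGN at 4 weeks and ICR at 4 weeks. The labels name no treatment, sex or transgene, and number the arrays of a group without saying whether each was a separate animal, so p-values measure the spread between these arrays, which may be technical. The labels give no locus at which the strains differ, so the strain difference and the kidney disease cannot be told apart.

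Interleukins and TNF superfamily ligands are small secreted or membrane-bound proteins that carry signals between immune cells, and between these and epithelial, endothelial and stromal cells. Receptors of the IL-1 family and of the TNF superfamily recruit adaptor proteins and kinases that activate NF-kB, while receptors of the IL-6 and gamma chain families act through JAK kinases and STAT factors. Soluble antagonists and decoy receptors, such as the IL-1 receptor antagonist, bind a receptor or a ligand without signalling. In the kidney, tubule cells, resident and infiltrating macrophages, and fibroblasts all produce or respond to members of these families.

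Values are scaled signal intensities of a probe set, on a common scale on which the median signal of all probe sets of an array lay between 37.6 and 45.4. A gene was tested where its probe set lay above the array's own median on at least 3 of the 12 arrays. Fold changes were taken on log2(signal + 11.1), given with the standard error (SE) of the fit, and a gene was called where its adjusted p did not exceed 0.05 (limma, Benjamini-Hochberg over 12385 tested genes). This scale understates the change of dim genes. Of the 106 members, 46 were tested and 60 were not. The untested members were 30 of the 44 ligands, 24 of the 51 receptors, 5 of the 8 antagonists and decoys and a gene of another kind. Counted among the ligands were Il1f5, the IL-36 receptor antagonist, and Tnfsf13os, named as an opposite-strand transcript. A signal above the array median was found on no array for 48 members and on all arrays for 23. Il7r and Tnfrsf13b passed through their ICGN 8-week arrays alone, so they had to be higher in ICGN to be tested, and both were called without the filter too. Il1rn and Il1rl2 likewise passed through ICGN arrays alone, at 8 and 4 weeks together, and kept their 8-week calls without the filter.

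The arrays of a group correlated at r of 0.977 to 0.989. All 16 proximal tubule markers and all 9 podocyte markers on the array were tested, and 3 of the podocyte markers rose in ICGN at 8 weeks while 0 fell. Markers of several cell types differed between the strains. Beside their counts, 11.7% of all tested genes were called higher in ICGN at 8 weeks and 22.2% lower, a split that moved with the scaling, as given below. Of 17 tested macrophage and dendritic cell markers, 16 rose in ICGN at 8 weeks and 0 fell, the exception being Csf1r. Their summed signal was 9029.9 to 11022 in ICGN and 3892 to 4988 in ICR at 8 weeks, and 4915 to 5641 in ICGN and 2778 to 3884 in ICR at 4 weeks, while Itgam lay below the array median on every array. Among fibroblast and pericyte markers 8 of 12 rose at 8 weeks, with summed signals of 13678 to 15308 in ICGN and 8474 to 10029 in ICR. Of 12 endothelial markers 8 fell at 8 weeks (4847 to 5213 in ICGN, 6438 to 7240.2 in ICR), as did 13 of 16 proximal tubule markers (87292 to 105205 in ICGN, 135470 to 158806 in ICR). Only 4 of 16 T and NK cell markers on the array were tested, of which 1 rose, and Cd4, Cd2, Cd5 and Cd28 were among 7 below the median on every array. Of 4 tested B and plasma cell markers 1 rose and 2 fell, and Ms4a1, Cd79a and Cd79b were below the median throughout. The part of these cell markers in the results was not tested, and in bulk RNA fewer cells of a type and less RNA per cell cannot be told apart.

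Promoter sequence was available from RefSeq (GRCm38.p6) for 83 members, each window running from 250 bases before to 50 bases after an annotated start. Of the 17 members called at 8 weeks, 14 had a window, and Il15, Il1f6 and Il17ra had none. The windows were searched on both strands for the AP-1 consensus TGANTCA, the letters bound by FOS and JUN factors. It stood in 7.81% of all 32851 windows and in 5 of the 19 windows of called members, namely those of Il1rn, Osmr, Tnfrsf9 and Tnfsf13b (the last with overlapping windows that share it). The STAT consensus TTCNNNGAA stood in 8.3% of all windows and in 3 of the 19 (Il7r, Tnfrsf1b and Tnfrsf9). An NF-kB consensus stood in 5.8% of all and in 2 of the 19 (Csf1 and Tnfrsf9). A match is a description of letters and not a site that was measured. The windows of 3 of the members with the largest rise at 8 weeks that have one are shown, 5′ to 3′, with the AP-1 match in capitals. The match of Il1rn (chr2:24336610-24336909, plus strand) began at base -141 from the start, that of Tnfsf13b (chr8:10006383-10006682, plus strand) at -127 and that of Osmr (chr15:6874264-6874563, minus strand) at 4. The other windows of Il1rn held none. In the other Tnfsf13b window (chr8:10006217-10006516), set by another annotated start, the same match began at base 40.
Il1rn: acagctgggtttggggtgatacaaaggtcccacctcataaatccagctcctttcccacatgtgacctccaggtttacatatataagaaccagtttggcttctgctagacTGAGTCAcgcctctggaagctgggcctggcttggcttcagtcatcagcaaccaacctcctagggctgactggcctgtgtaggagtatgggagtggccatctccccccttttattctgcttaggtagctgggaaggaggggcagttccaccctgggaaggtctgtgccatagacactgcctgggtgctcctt
Tnfsf13b: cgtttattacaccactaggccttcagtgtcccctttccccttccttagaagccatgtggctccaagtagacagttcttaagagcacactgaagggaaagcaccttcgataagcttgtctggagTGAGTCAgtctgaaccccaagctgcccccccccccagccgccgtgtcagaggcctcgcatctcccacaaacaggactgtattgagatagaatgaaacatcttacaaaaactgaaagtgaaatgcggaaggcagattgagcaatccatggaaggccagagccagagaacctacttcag
Osmr: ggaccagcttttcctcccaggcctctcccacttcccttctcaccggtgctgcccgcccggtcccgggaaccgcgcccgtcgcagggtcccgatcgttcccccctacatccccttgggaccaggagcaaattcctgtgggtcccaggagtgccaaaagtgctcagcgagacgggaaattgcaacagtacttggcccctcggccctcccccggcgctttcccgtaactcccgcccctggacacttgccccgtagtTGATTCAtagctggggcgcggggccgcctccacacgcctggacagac

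The first comparison asked which cytokines and receptors differed between nephrotic and normal cortex at 8 weeks. In ICGN 12 of the 46 tested members rose and 5 fell, together 17, against 33.8% of all tested genes called (11.7% higher and 22.2% lower). The 12 include Il1rn, Il1rl2, Il7r and Tnfrsf13b, which had passed the filter through ICGN arrays alone. The IL-1 receptor antagonist Il1rn, the IL-36 ligand Il1f6, the B cell survival factor Tnfsf13b, the oncostatin M receptor Osmr and the macrophage growth factor Csf1 rose most, between 2.32-fold and 6.56-fold. The fallen members were Il1f10, Il15, Il6st, Il13ra1 and Il17ra. The median log2 fold change was 0.23 over the tested members and -0.10 over all tested genes. All 3 ICGN arrays lay above all 3 ICR arrays for 14 members, against 16.0% of all tested genes, and below them for 4, against 29.8%. Under the authors' own scaling the counts were 12 higher and 2 lower, and of all genes called 58.8% were higher, against 34.4% on the scale used here. With quantile normalization that share was 50.6%. The median of all tested genes stood at 0.05 and -0.03 under those scalings, and no called member changed sign under either.

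The IL-1 family had the members with the largest differences. Il1rn, the secreted antagonist that occupies the IL-1 receptor without signalling, had signals of 144, 113 and 235 in ICGN and 17.4, 28.6 and 3.72 in ICR at 8 weeks. Every ICGN array was far above every ICR array, and all ICR arrays were below the array median. The log2 fold change was 2.71 ± 0.41 (limma adjusted p = 0.000299, n = 3 arrays a group), and all 3 probe sets of the gene were called. It was 3.67 with an offset of 0 and 1.75 with 4 times the offset. Il1f6, which encodes IL-36 alpha, a ligand released by epithelial cells, read 181, 141 and 214 in ICGN and 15.3, 43.8 and 28.7 in ICR. These groups stood far apart too, by 2.28 ± 0.27 (limma adjusted p = 5.37e-05), or 1.60 with 4 times the offset. Its receptor Il1rl2 read 38.8, 43.0 and 53.7 in ICGN and 23.8, 9.31 and 15.2 in ICR, a rise of 1.08 ± 0.27 (limma adjusted p = 0.00686), with all ICR arrays below the array median. The antagonist of that receptor, Il1f5, differed by -0.57 ± 0.36 and was not called (limma adjusted p = 0.254).

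Il33, the nuclear alarmin that signals through Il1rl1, read 303, 284 and 382 in ICGN and 208, 96.6 and 204 in ICR. The groups did not overlap, and the rise was 0.95 ± 0.22 (limma adjusted p = 0.00451), or 0.61 without ICR replicate 2. Its receptor Il1rl1 was not analysed here. Il1f10, known as IL-38 and described as an antagonist of the family in human cells, was lower in ICGN, with 12.7, 28.9 and 56.9 against 55.7, 81.9 and 77.6 in ICR. Those groups overlapped, the difference of -1.03 ± 0.32 had a limma adjusted p of 0.0253, and the call was lost when any of 4 arrays was left out (ICGN replicate 1 or 2, or ICR replicate 2 or 3, adjusted p 0.0563 to 0.114). It was also lost under the authors' scaling (adjusted p = 0.0838) and in a fit of the 6 arrays of this age alone (0.0515). Il1b, the main secreted IL-1 agonist, read 56.1, 72.6 and 65.5 in ICGN and 42.9, 48.2 and 47.5 in ICR and was not called at this age (log2 0.40 ± 0.19, limma adjusted p = 0.114), although its groups did not overlap. The receptor Il1r1 differed by 0.49 ± 0.27 and was not called either (limma adjusted p = 0.179). Il1a was not tested.

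**Figure D1:**
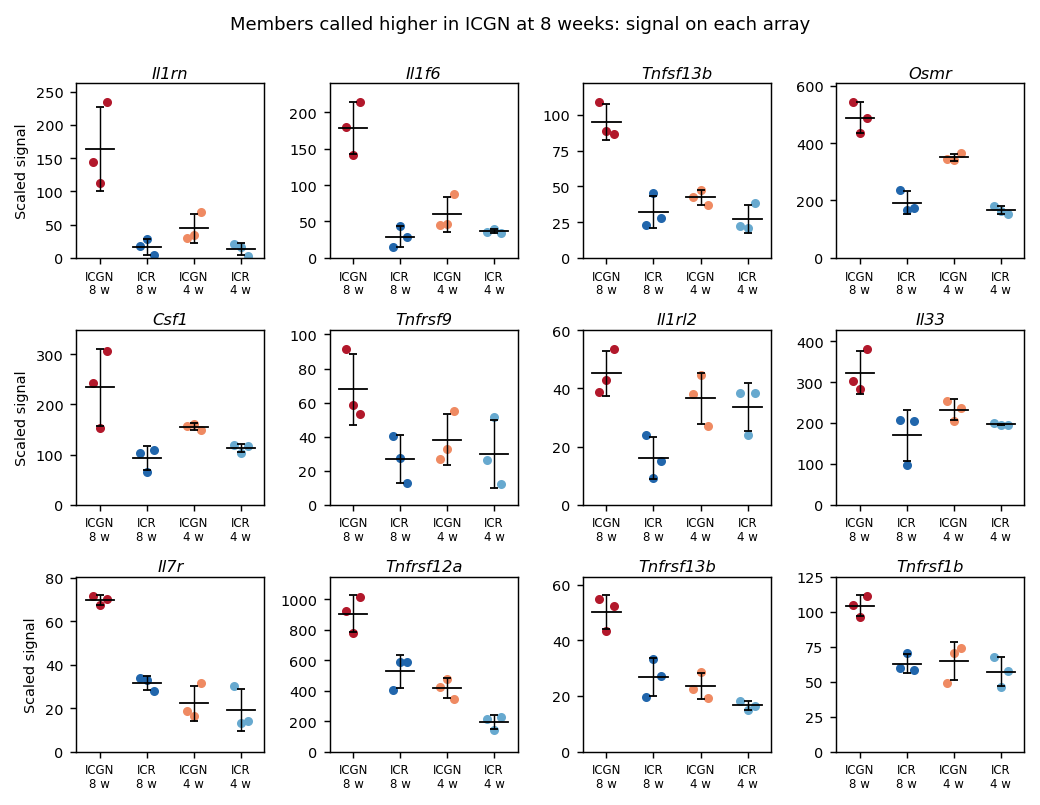
Scaled signal intensity (y axis, linear from 0) of the 12 members that rose in ICGN at 8 weeks, for ICGN and ICR at 8 weeks and at 4 weeks (x axis). Points are single arrays, and bars are the mean with its SD (n = 3). For Il1rn and Il1f6 the 3 ICGN arrays at 8 weeks lie between 113 and 235, above every array of the other groups.

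In the gp130 family the receptor chain Osmr rose and the shared chain Il6st fell. Osmr, the signalling receptor chain for oncostatin M, read 544, 436 and 487 in ICGN and 238, 167 and 173 in ICR at 8 weeks. All ICGN arrays were above all ICR arrays, by 1.31 ± 0.13 (limma adjusted p = 1.48e-05), and both probe sets were called. Il6st, the gp130 chain shared by the receptors of IL-6, oncostatin M and LIF, was lower, with 1079.8, 1398 and 1168 in ICGN and 2016, 1693 and 1968 in ICR. The groups did not overlap (-0.64 ± 0.11, limma adjusted p = 0.000759), but this was 1 of 4 tested probe sets of the gene, and the others differed by -0.09, 0.04 and 0.10 with no call. The called value was -0.41 with quantile normalization. Il6ra, the IL-6 binding chain, and Lifr, the LIF receptor, differed by 0.35 ± 0.41 and -0.08 ± 0.13 and were not called (limma adjusted p = 0.536 and 0.69), the sign of Lifr turning under quantile normalization (0.06).

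The ligands of these receptors were dim. Osm read 23.8, 29.4 and 9.86 in ICGN and 27.2, 36.7 and 39.2 in ICR at 8 weeks, below the array median on 5 of the 6 arrays, and was not tested. Il6 read 18.5, 1.39 and 9.69 in ICGN and 0.802, 1.23 and 0.379 in ICR, likewise untested. No order is read from signals this dim. Lif, a ligand of Lifr, was tested, with 37.8, 38.3 and 33.3 in ICGN and 40.0, 19.3 and 25.1 in ICR, and was not called (0.31 ± 0.37, limma adjusted p = 0.557).

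Among the ligands of the CSF-1 receptor, which keeps macrophages alive, Csf1 read 243, 153 and 307 in ICGN and 104, 65.2 and 110.1 in ICR at 8 weeks. The groups did not overlap, and the rise was 1.21 ± 0.22 (limma adjusted p = 0.000846). Of its 4 probe sets 2 were called, at 1.21 and 1.64, while the others stood at 0.54 and -0.33 with no call. Il34, the other ligand, read 216, 236 and 220.0 in ICGN and 179, 269.9 and 285 in ICR and was not called (-0.09 ± 0.22, limma adjusted p = 0.785). Its sign turned under the authors' scaling (0.06). The receptor gene Csf1r averaged 1986 ± 139.9 in ICGN and 2059 ± 458 in ICR (SD, n = 3) and was not called (-0.03 ± 0.15, or 0.22 with quantile normalization), beside the macrophage markers given above, of which 16 of 17 rose.

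Of the 9 genes counted as TNF superfamily ligands, 4 were tested and 1 rose, against 11.7% of all tested genes higher. The 9 include the untested Tnfsf13os, which is named as an opposite-strand transcript. Tnfsf13b encodes BAFF, which maintains B cells, and read 109, 88.4 and 86.7 in ICGN and 23.3, 45.0 and 27.9 in ICR. ICGN arrays were higher throughout (1.32 ± 0.24, limma adjusted p = 0.000879). Tnfrsf13b, its receptor TACI, read 54.8, 43.4 and 52.4 in ICGN and 19.7, 33.4 and 27.0 in ICR, a rise of 0.71 ± 0.23 (limma adjusted p = 0.0312). That call was lost without ICGN replicate 1 or 3 or ICR replicate 1 or 3 (adjusted p 0.0647 to 0.102), with an offset of 0, with quantile normalization and with medians taken over all probe sets. The other BAFF receptors, Tnfrsf13c and Tnfrsf17, were not tested. Of the 4 tested B and plasma cell markers, the B cell adaptor Blnk rose in ICGN at 8 weeks (0.59), Pax5 was not called, while Mzb1 (-0.89) and Jchain (-2.32) of plasma cells fell, Mzb1 losing its call without ICGN or ICR replicate 2 (adjusted p 0.0509 and 0.0803). Their part in these results was not tested. Tnf itself read 4.88, 6.86 and 10.7 in ICGN and 18.0, 15.9 and 7.67 in ICR at 8 weeks, below the array medians, and was not tested.

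Of 8 tested signalling receptors of the TNF superfamily, 4 rose at 8 weeks and 0 fell, against 11.7% of all tested genes higher and 22.2% lower. Tnfrsf13b, described above, is among the 4 and passed the filter only through the ICGN arrays of this age. Tnfrsf12a, the TWEAK receptor Fn14 of injured tubules, read 925, 776 and 1014 in ICGN and 401, 589 and 589.6 in ICR. Every ICGN array was above every ICR array (0.78 ± 0.19, limma adjusted p = 0.00585), and both probe sets were called. Tnfrsf1b, the second TNF receptor, read 105, 96.3 and 111 in ICGN and 59.7, 70.7 and 58.0 in ICR (0.64 ± 0.18, limma adjusted p = 0.0127). The first TNF receptor, Tnfrsf1a, differed by 0.01 ± 0.11 and was not called (limma adjusted p = 0.97), with a sign that turned without ICGN replicate 1 (-0.11). Tnfrsf9, a co-stimulatory receptor of T cells, read 91.8, 58.8 and 53.2 in ICGN and 40.5, 27.1 and 12.6 in ICR (1.10 ± 0.38, limma adjusted p = 0.0369). It lost its call without any of the 3 ICGN arrays or without ICR replicate 2 or 3 (adjusted p 0.0523 to 0.147), with an offset of 0 (0.0513) and with no filter (0.0531). Tnfrsf21, the death receptor DR6, read 3468, 2688 and 3225 in ICGN and 3050.0, 2870.2 and 2227 in ICR, with overlapping groups and no call (0.21 ± 0.13, limma adjusted p = 0.254).

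In the gamma chain and IL-13 family a receptor rose while a ligand and a receptor fell. Il7r, the IL-7 receptor chain of lymphocytes, read 71.5, 67.3 and 70.2 in ICGN and 33.7, 32.7 and 27.6 in ICR, all ICR arrays being below the array median (0.93 ± 0.26, limma adjusted p = 0.0133). Il15, which supports NK and memory T cells and is made by tubule cells, read 156, 249.7 and 286 in ICGN and 414, 354 and 498 in ICR. ICGN was lower on every array (-0.87 ± 0.22, limma adjusted p = 0.0071), while its receptor Il15ra differed by 0.04 ± 0.24 with no call (limma adjusted p = 0.912), a sign that turned without ICR replicate 2 (-0.23). Il13ra1, a chain of the IL-4 and IL-13 receptor, read 382, 533 and 494 in ICGN and 529, 636 and 698 in ICR. Those groups overlapped, 1 of 4 probe sets was called (-0.40 ± 0.14, limma adjusted p = 0.0361), and the call was lost without ICGN replicate 1 or 3 or ICR replicate 2 or 3 (adjusted p 0.0545 to 0.161), under quantile normalization, under the authors' scaling, with no variance trend and in a fit of the 6 arrays of this age alone (0.0532 to 0.225).

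All 5 IL-17 receptor genes were tested and 1 was called, against 33.8% of all tested genes called (11.7% higher and 22.2% lower). Il17ra, the shared IL-17 receptor chain, read 127, 142 and 152 in ICGN and 185, 186 and 184 in ICR, a difference of -0.37 ± 0.12 (limma adjusted p = 0.0245). Its other probe set stood at -0.38 with an adjusted p of 0.06. The call was lost without ICGN replicate 1 or 2 or ICR replicate 2 or 3 (adjusted p 0.0514 to 0.0921) and under the authors' scaling (0.2). None of the 4 IL-17 ligands was tested. In the IL-10 family 1 of 9 genes was tested, the receptor chain Il10rb, which differed by 0.05 ± 0.09 with no call (limma adjusted p = 0.671), and whose sign turned with medians taken over all probe sets (-0.04). The 29 tested members without a call at 8 weeks had log2 fold changes between -0.57 and 0.60, of which 18 were positive and 11 negative.

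**Figure D2:**
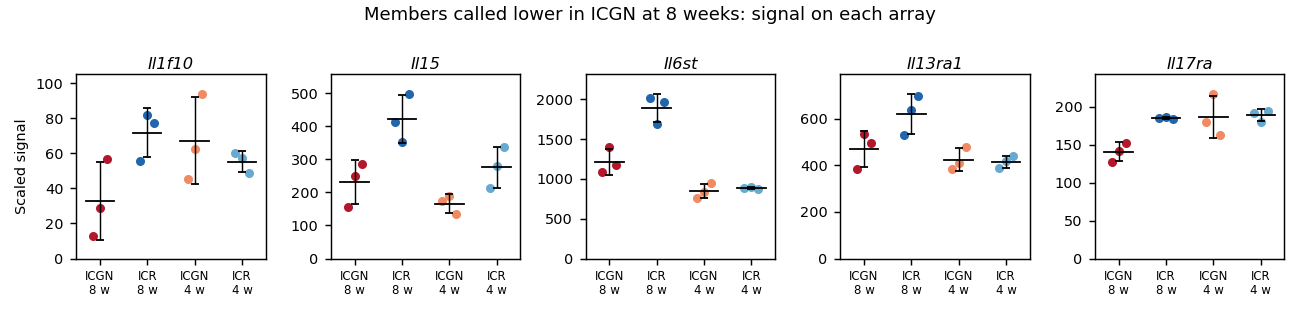
Scaled signal intensity (y axis, linear from 0) of the 5 members lower in ICGN at 8 weeks, by strain and age (x axis). Points are single arrays, and bars are the mean with its SD (n = 3). ICGN and ICR arrays at 8 weeks stand apart for Il15 and Il6st and overlap for Il1f10 and Il13ra1.

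**Figure D3:**
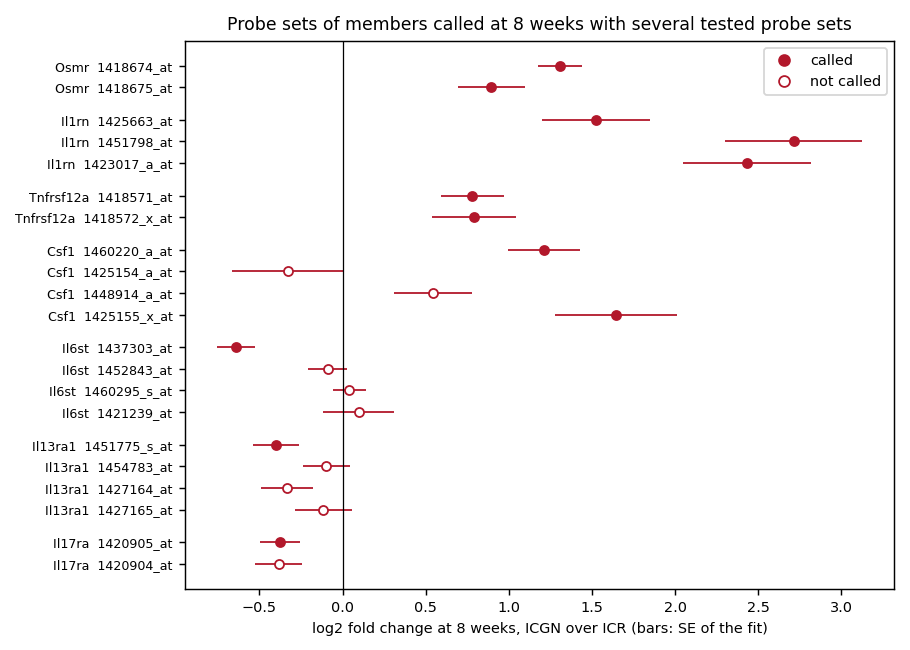
Log2 fold changes, ICGN over ICR at 8 weeks, of the tested probe sets of each called gene that has more than 1, with calls shown filled and other probe sets open. All 3 probe sets of Il1rn are called, while 1 of the 4 of Il6st and 1 of the 4 of Il13ra1 are.

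The second comparison set the strains against each other at 4 weeks. Of the 46 members 3 rose in ICGN and 0 fell, against 4.05% of all tested genes called (2.11% higher and 1.95% lower). The risen members were Tnfrsf12a, Osmr and Il1b. The median log2 fold change was 0.15 over the tested members and -0.01 over all tested genes. All ICGN arrays lay above all ICR arrays for 10 members, against 12.1% of all tested genes, and below them for 5, against 12.4%.

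Tnfrsf12a read 426, 474 and 348 in ICGN and 211, 141 and 224 in ICR at 4 weeks. The groups did not overlap, and the rise of 1.08 ± 0.19 was 2.12-fold (limma adjusted p = 0.00533). Osmr read 346, 343 and 365 in ICGN and 179.7, 165 and 154 in ICR, a rise of 1.03 ± 0.13 with no overlap (limma adjusted p = 0.000955). Il1b read 58.4, 71.4 and 55.8 in ICGN and 36.2, 22.6 and 29.7 in ICR (0.85 ± 0.19, limma adjusted p = 0.0198). Its groups were apart, but the call was lost without ICGN replicate 1 or 2 or ICR replicate 2 or 3 (adjusted p 0.0526 to 0.101), under the authors' scaling (0.0525) and in a fit of the 6 arrays of this age alone (0.0599). Macrophage markers moved beside these genes at 4 weeks as well, 11 of 17 being higher and 0 lower. Of all tested genes, 2.11% were higher and 1.95% lower at this age.

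Il1rn read 30.4, 33.7 and 69.7 in ICGN and 21.4, 16.1 and 3.16 in ICR at 4 weeks and was not called (1.19 ± 0.41, limma adjusted p = 0.132). Il1f6 read 45.1, 46.8 and 87.4 in ICGN and 35.0, 39.5 and 34.4 in ICR, also with no call (0.53 ± 0.27, limma adjusted p = 0.336). Neither is thereby shown to have been equal at that age. Csf1 read 158, 161 and 149 in ICGN and 118, 104 and 116 in ICR, apart but with no call (0.43 ± 0.22, limma adjusted p = 0.315). Tnfsf13b read 42.7, 47.6 and 37.0 in ICGN and 22.4, 20.6 and 38.4 in ICR, with overlap and no call (0.51 ± 0.24, limma adjusted p = 0.27). Of the 10 members that rose at 8 weeks and were not called at 4 weeks, 10 had a positive log2 fold change at 4 weeks, between 0.10 and 1.19. With the fallen members included, 12 of 15 were positive and 3 negative, the positive ones including the fallen Il1f10 (0.20) and Il13ra1 (0.03). Among all 43 tested members not called at 4 weeks, 29 were positive and 14 negative.

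**Figure D4:**
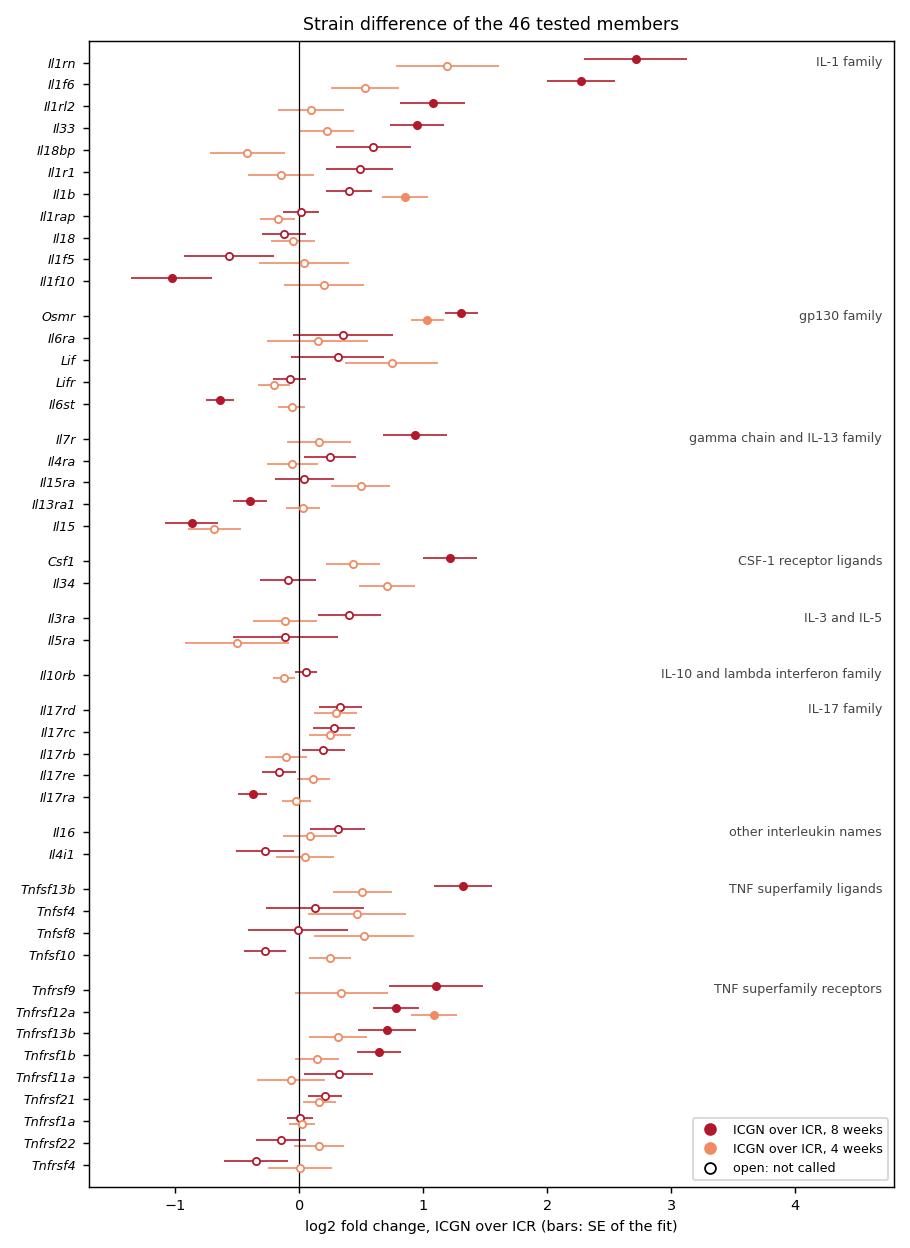
Log2 fold changes, ICGN over ICR, of the 46 tested members by family, with the SE of the fit, at 8 weeks and at 4 weeks. Filled points are called and open points are not, and Osmr and Tnfrsf12a are filled at both ages.

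The third comparison asked whether the strain difference itself differed between the ages. It did for 2 of the 46 members, against 10.7% of all tested genes (3.88% with a higher and 6.77% with a lower difference at 8 weeks). The median of this interaction was 0.09 over the members and -0.09 over all tested genes. For Il1f6 the strain difference was 2.28 at 8 weeks and 0.53 at 4 weeks, an interaction of 1.75 ± 0.39 (limma adjusted p = 0.0148). For Il6st it was -0.64 at 8 weeks and -0.06 at 4 weeks (-0.58 ± 0.16, limma adjusted p = 0.0345). The Il6st call was lost when any of 9 of the 12 arrays was left out, the exceptions being ICGN at 8 weeks replicate 2, ICR at 8 weeks replicate 2 and ICGN at 4 weeks replicate 1 (adjusted p 0.0536 to 0.0808). It was also lost under quantile normalization (0.12), with medians over all probe sets (0.051) and with no variance trend (0.061). Il1rn had an interaction of 1.52 ± 0.59 with no call (limma adjusted p = 0.114), and Osmr, with 0.28 ± 0.19, had none either (limma adjusted p = 0.365). The share of all interaction calls that were higher was 36.4% here and 53.9% with quantile normalization.

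The remaining comparisons set 8 weeks against 4 weeks within each strain. The authors had scaled the arrays of each age to a target of its own, so age and any separate handling of the 2 sets of arrays cannot be told apart. In ICGN 11 members rose with age and 2 fell, against 23.4% of all tested genes called (9.77% higher and 13.6% lower). In ICR 10 rose and 3 fell, against 33.4% (19.6% higher and 13.8% lower). Medians over the members were 0.29 in ICGN and 0.18 in ICR, against -0.04 and 0.05 over all tested genes. The ICR count of 13 was 7 without ICR at 4 weeks replicate 3 and 7 without ICR at 8 weeks replicate 3, and the higher share of all ICR calls was 58.6% here and 45.2% with quantile normalization. Of the macrophage markers 14 of 17 rose with age in ICGN and 3 in ICR, and 0 fell in either. Of the fibroblast and pericyte markers 3 of 12 rose and 2 fell in ICGN, while 1 rose and 9 fell in ICR. Among 12 endothelial markers 0 rose and 6 fell in ICGN, while 3 rose and 3 fell in ICR. Among 16 proximal tubule markers 2 rose and 5 fell in ICGN, while 6 rose and 0 fell in ICR. Among 6 tested inner medulla markers 0 rose in either strain, while 1 fell in ICGN and 2 fell in ICR. The part of these markers in the age results was not tested.

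Il34, the CSF-1 receptor ligand made by tubule cells, rose in both strains. It read 216, 236 and 220.0 at 8 weeks and 81.5, 70.0 and 112 at 4 weeks in ICGN (1.27 ± 0.22, limma adjusted p = 0.0014). In ICR it read 179, 269.9 and 285 at 8 weeks and 72.1, 45.0 and 34.5 at 4 weeks (2.07 ± 0.22, limma adjusted p = 1.89e-05). Tnfrsf12a rose by 1.10 ± 0.19 in ICGN and 1.41 ± 0.19 in ICR (limma adjusted p = 0.00108 and 9.47e-05). Tnfrsf21 read 3468, 2688 and 3225 at 8 weeks and 2107, 1875 and 2393 at 4 weeks in ICGN, a rise of 0.55 ± 0.13 beside 0.51 ± 0.13 in ICR, where quantile normalization lost the call (adjusted p = 0.122). Il6st rose by 0.51 ± 0.11 in ICGN and 1.09 ± 0.11 in ICR, where another of its probe sets was called lower.

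Il1rn, Il1f6 and Il7r rose with age in ICGN, by 1.66 ± 0.41, 1.45 ± 0.27 and 1.31 ± 0.26 (limma adjusted p = 0.011, 0.00216 and 0.00285). In ICR these genes had values of 0.14, -0.29 and 0.54 with no call, the sign of Il1rn turning without ICR at 4 weeks replicate 3 (-0.22). The Il1rn call in ICGN was lost without ICGN at 8 weeks replicate 3 (adjusted p = 0.0598) and with an offset of 0 (0.0928). In ICR Tnfsf4, the OX40 ligand, rose by 1.44 ± 0.40 (limma adjusted p = 0.0131), or 2.68 with an offset of 0 and 0.69 with 4 times the offset, and lost its call without ICR at 4 weeks replicate 3 (0.0574). Il18bp, the soluble protein that binds and blocks IL-18, was lower at 8 weeks in ICR, with 14.1, 48.6 and 56.5 at 8 weeks and 91.6, 83.6 and 85.9 at 4 weeks (-1.07 ± 0.30, limma adjusted p = 0.0153). Without ICR at 8 weeks replicate 1 that difference was -0.63, and it was -0.68 with 4 times the offset. Smaller falls were those of Il1rl2 in ICR (-0.73), Tnfrsf1a in ICGN and ICR (-0.35 and -0.33) and Il17ra in ICGN (-0.38). Each of these calls was lost when any of 4 or 5 of the 6 arrays of its strain was left out (adjusted p 0.0536 to 0.155). They were kept for Il1rl2 without ICR at 4 weeks replicate 2 or at 8 weeks replicate 1, for Tnfrsf1a without replicate 1 of its strain at 8 weeks, and for Il17ra without ICGN replicate 3 at either age. The Il1rl2 call was also lost with 4 times the offset, with medians over all probe sets, with quantile normalization, with no filter, with the 6 ICR arrays alone and with a replicate block (0.0518 to 0.114). That of Il17ra was lost with no filter (0.0549) and with the 6 ICGN arrays alone (0.06), and that of Tnfrsf1a in ICR with medians over all probe sets (0.0507).

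**Figure D5:**
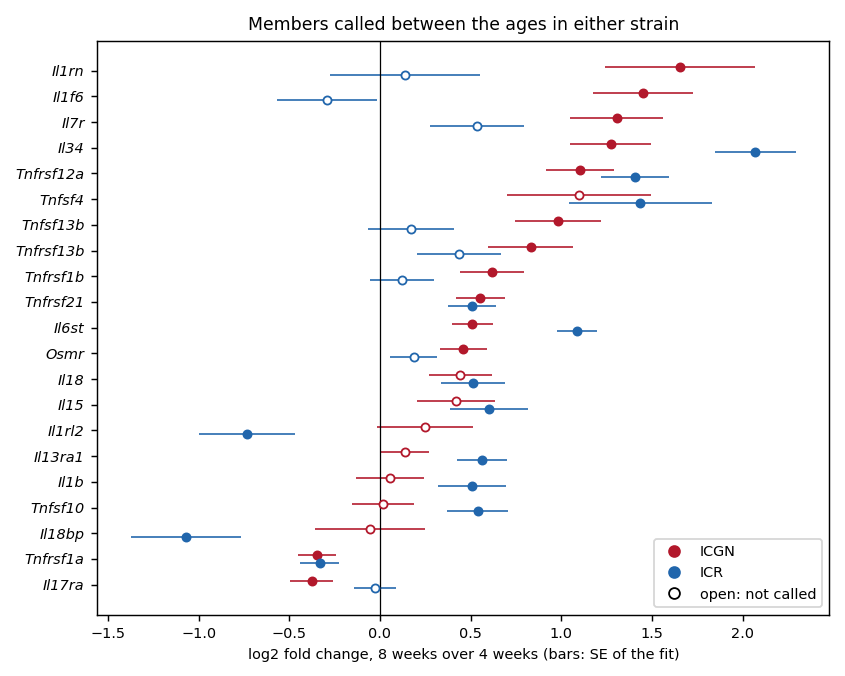
Log2 fold changes, 8 weeks over 4 weeks, of the members called in either strain, with the SE of the fit. Il34 is filled in both strains, at 1.27 in ICGN and 2.07 in ICR, while Il1rn and Il1f6 are filled in ICGN alone.

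Genes that act downstream of these receptors were read from lists, at 8 weeks unless stated. The lists were chosen with earlier results of these data known, so their counts are descriptions only. Of 15 tested NF-kB subunits and target genes 11 rose in ICGN and 0 fell, with a median of 0.94, against 11.7% of all tested genes higher and a median of -0.10. They included the adhesion molecule Vcam1 (3.54), the inhibitors Nfkbie (2.04) and Tnfaip3 (1.79), and Nfkbiz (1.43). At 4 weeks 5 of the 15 rose and 0 fell, against 2.11% of all tested genes higher and 1.95% lower. The macrophage and fibroblast markers given above rose beside them, and their part in this count was not tested. Of 13 adaptors and kinases of the IL-1 and TNF receptors 2 rose, Myd88 (0.38) and Traf2 (0.34), and 2 fell, Irak1 (-0.47) and Irak2 (-0.44). Their median was -0.09, and 22.2% of all tested genes were lower. Irak1 and Irak2 lost their calls under the authors' scaling (adjusted p 0.0824 and 0.127), and Myd88 and Traf2 with medians over all probe sets (0.0774 and 0.118). Traf2 also lost it without ICGN replicate 1 or 3 or ICR replicate 2, and Irak2 without any ICGN array or ICR replicate 2 or 3 (0.0548 to 0.14). With no filter Traf2 and Irak2 both lost it (adjusted p 0.0521 and 0.0503). Traf2 lost it in a fit of the 6 arrays of this age alone (0.0645), and Irak2 with quantile normalization (0.0707).

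Of 9 tested JAK kinases and STAT factors 1 rose, Stat3 (0.68), and 0 fell, with a median of -0.03. Beside this list and those below, 11.7% of all tested genes were higher at 8 weeks and 22.2% were lower. Among 12 STAT feedback inhibitors and targets 4 rose and 1 fell, with a median of 0.36. The risen genes were the inhibitor Socs3 (1.55), the fibrinogen chain Fga (1.29), Cebpd (0.66) and Lbp (0.48), and the fallen gene was Cish (-1.21), which lost its call under the authors' scaling (adjusted p = 0.0509). Cebpd lost its call without ICGN replicate 1 or 3 or ICR replicate 2 or 3, and Lbp without any array of this age but ICGN replicate 2 (0.0643 to 0.152). Both also lost it in a fit of the 6 arrays of this age alone (adjusted p 0.0588 and 0.0527). Lbp lost it too with medians over all probe sets, quantile normalization, no filter and a replicate block (adjusted p 0.0612 to 0.081). At 4 weeks Socs2 was lower (-1.54) and 0 were higher. Of 7 tested members of the TNF superfamily whose symbols the rule does not take, 3 rose, Eda2r (1.19), Ltb (1.13) and Cd40 (0.78), and Relt fell (-1.14). Cd40 lost its call without ICGN replicate 3 or ICR replicate 2, and Relt without ICGN replicate 2 or any ICR array (adjusted p 0.0527 to 0.128). A last list held 11 tested genes for related cytokines, colony-stimulating factor and interferon-gamma receptors, and inflammatory caspases, of which 6 rose and 0 fell. They were the caspase Casp4 (1.79), the GM-CSF receptor chains Csf2rb (1.14) and Csf2ra (1.08), the interferon-gamma receptor chains Ifngr2 (0.87) and Ifngr1, and the TSLP receptor Crlf2.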

How the data were processed

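The authors deposited a linear signal intensity for each probe set. Per the submitters' processing notes it came from MAS5, with no version named. RNA came from cortex slices kept in RNAlater, per the labels' protocols. The deposited mean after trimming 2% at each end was 100 on the 4-week and 500 on the 8-week arrays, with medians of 17.4 to 19.0 and 75.3 to 108.

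Of 45101 probe sets, 64 controls and those with several (932) or no symbol (9160) were left out of gene counts, 6 with several symbols fitting the rule in part. The annotation symbols of all 106 members matched RefSeq. Each array was scaled so that the median of the 24790 probe sets above the array median on at least 3 arrays was 175, and an offset of 11.1, the 25th percentile, was added before log2. The probe set with the highest mean, those ending in _x_at last, stood for its gene.

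The 12 arrays entered 1 linear model with a mean for each of 4 groups, which leaves 8 residual degrees of freedom, in limma 3.58.1 under R 4.3.3 (eBayes with trend), and the procedure was tested on simulated data. Alternatives were the scaling, offset, filter, variance trend, arrays entering the fit, a replicate block and leaving out each array. Text names all members called between strains, up to 4 per direction with age, their partners, and Tnf, Il1b, Il6, Osm, Lif and Csf1, with up to 4 genes per list. The members and lists were chosen with earlier results of these data known. Arrays carry no counts, so their number limits the precision.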

Additional observations from a re-analysis of the deposited data

Results flagged for a closer look

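For 2 members the difference between the strains itself differed between the ages by the interaction term of the limma fit over all tested genes. Il1f6, the IL-36 alpha gene, had a strain difference larger by 1.75 on the log2 scale at 8 weeks than at 4 weeks, with means of 178 ± 36.2 in ICGN and 29.3 ± 14.3 in ICR at 8 weeks, and 59.8 ± 24.0 in ICGN and 36.3 ± 2.79 in ICR at 4 weeks (SD, n = 3). This call was kept when each of the 12 arrays was left out in turn. Il6st, the gp130 gene, had an interaction of -0.58, with means of 1215 ± 164 in ICGN and 1893 ± 174 in ICR at 8 weeks, and 849 ± 92.8 in ICGN and 883 ± 10.4 in ICR at 4 weeks. It rests on 1 of the 4 tested probe sets of the gene. No group had enough arrays to look for a single array far from the others.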

How the results depend on the processing

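At 8 weeks 12 of the 17 called members kept their call under every alternative in which they were tested (Csf1, Il15, Il1f6, Il1rl2, Il1rn, Il33, Il6st, Il7r, Osmr, Tnfrsf12a, Tnfrsf1b and Tnfsf13b), and 5 lost it under at least 1 (Il13ra1, Il17ra, Il1f10, Tnfrsf13b and Tnfrsf9). For single genes the choice of probe set was not among the alternatives. Il6st and Csf1, counted as kept, also had tested probe sets without a call, as given above. Over all comparisons, calls of single members were kept in 604 recomputed values, lost in 120 and reversed in 0. Recomputed values of members not called in the main fit stayed uncalled with the same sign in 428, gained a call in 9 and turned sign in 16. A filter at the 75th percentile left 12 members tested, of which 6 were called between strains at 8 weeks, 6 with age in ICGN, 7 with age in ICR and 1 in the interaction. The interaction count was also 1 with the median over all probe sets, with quantile normalization and with no variance trend; the cause was not tested. Leaving out each array in turn gave 12 to 18 calls at 8 weeks, 2 to 4 at 4 weeks, 1 to 3 for the interaction, 9 to 12 with age in ICGN and 7 to 11 in ICR. Signs that turned among the genes given with values were those of uncalled genes, the cause not tested. Il15ra was -0.044 with the median over all probe sets, and -0.23 to 0.31 with 1 array left out, negative without ICGN replicate 2 or ICR replicate 2. Il10rb was -0.037 with that median and -0.0015 to 0.11 with 1 array left out, negative without ICR replicate 2. Il34 was 0.059 under the authors' scaling, and -0.29 to 0.025 with 1 array left out, positive without ICR replicate 3. Tnfrsf1a was -0.084 with the median over all probe sets, and -0.11 to 0.077 with 1 array left out. Lifr was 0.062 with quantile normalization, 0.078 under the authors' scaling and -0.20 to 0.10 with 1 array left out. Csf1r was 0.22 and 0.13 under those settings, and -0.19 to 0.13 with 1 array left out. With 1 array left out, Il6st at 4 weeks ranged over -0.14 to 0.0079 and Il1rn with age in ICR over -0.22 to 0.53. With the replicate number as a block, the counts were 17 at 8 weeks, 3 at 4 weeks, 2 for the interaction, 15 with age in ICGN and 11 in ICR. The numbers were not used as pairs in the main fit. Among 18 same-numbered pairs of arrays 1 deviated together at a correlation over 0.1 (range -0.10 to 0.11). With so few arrays a group, this cannot exclude a shared handling of arrays with the same number. With 4 times the offset the log2 values of dim called genes shrank, to 0.57 for Il1rl2, -0.62 for Il1f10, 0.59 for Il7r, 0.66 for Tnfrsf9, 0.42 for Tnfrsf13b and 0.87 for Tnfsf13b at 8 weeks and 0.53 for Il1b at 4 weeks, all still called. In all, 60 of 106 members were too dim to be tested.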

Other observations

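With no filter on dim probe sets, Il10ra, Il27ra and Tnfrsf8 were also called between the strains at 8 weeks, and no fold change is given for them because their signals are so low. Without the filter Il10ra was called in the interaction too, Il10ra and Il23a were called with age in ICGN, and Tnf and Tnfsf9 with age in ICR. None of these 4 genes was above the array median on any array. Il27ra, the receptor of IL-27, read 35.9, 58.5 and 36.8 in ICGN and 8.63, 32.4 and 11.7 in ICR at 8 weeks, above the array median on 1 of the 12 arrays. Tnfrsf8, which encodes CD30, read 15.7, 14.1 and 10.9 in ICGN and 23.4, 30.4 and 24.8 in ICR, above the median on none. Il10ra, the binding chain of the IL-10 receptor, read 22.0, 17.9 and 25.3 in ICGN and 5.0, 2.90 and 3.75 in ICR, also above it on none. Its other probe sets averaged 11.8 in ICGN and 16.8 in ICR, and 0.852 in ICGN and 0.802 in ICR.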
